A study of Macaca mulatta with 13 samples.

Results

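The genes described here are those named for the rhesus major histocompatibility complex (MHC) and 4 others that work with them, in the thigh muscle of aged monkeys. The set was proposed with earlier results of these data known, and its rule reads the annotation: 32 probe sets for which every gene symbol starts with MAMU-, the prefix of rhesus MHC genes, and 7 with the single symbol B2M, CD74, TAP1 or TAP2. That made 17 genes, read by 39 of 52766 probe sets. A probe set is a group of short DNA probes on the array, meant to read 1 transcript, and some match several genes by annotation. By role they were 16 probe sets for class I heavy chains, 7 for class II chains, 9 for the class II exchange proteins DM and DO, 1 for CD74, 2 for B2M and 4 for the peptide transporter TAP. Of the 39, 28 were bright enough to be tested and 11 were not, and 9 further probe sets with both MAMU- and other symbols were left out by the rule.

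MHC class I molecules sit on nearly every nucleated cell and show peptides from inside the cell to cytotoxic T cells. Each is a polymorphic heavy chain bound to beta-2 microglobulin, the invariant light chain encoded by B2M, and loaded with peptides that TAP1 and TAP2 pump into the endoplasmic reticulum. Class II molecules pair an alpha and a beta chain, are made mainly by macrophages, dendritic cells and B cells, and show peptides from outside the cell to helper T cells. CD74, the invariant chain, occupies the class II groove until DM exchanges it for peptide, a step that DO restrains. The rhesus complex is known for many class I genes of like sequence, whose number and alleles differ between animals, so a probe can match one animal's alleles and not another's. Polymorphism of this kind and cross-hybridisation between like genes therefore limit what each signal can be read as, and their part in the values below was not tested.

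The muscle was the vastus lateralis, the large lateral thigh muscle of the rhesus monkey (Macaca mulatta), from 13 male animals with 1 one-colour Affymetrix array each. The 8 calorie-restricted (CR) animals were 27 to 32 years old, and the 5 animals on the control diet were 27 to 30 years old. The stated length of the restriction was 18.5 years, and the study asked how muscle gene expression responds to it. Ages are known per group only, no genotype at the MHC was used here, and animals are called by the replicate number of their label.

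Signals are MAS5 values on a linear scale, scaled to a 2% trimmed mean of 500 on every array, and differences are CR minus control on the log2 scale with a standard error (SE). The number of arrays limits the precision. Over the tested probe sets, Pearson's r between 2 arrays lay between 0.834 and 0.940. The tissue label fits its markers: of 12 markers of muscle fibres, 9 had a probe set with that symbol alone, and all 9 were tested. Mean signals were 78175 for CKM, the muscle creatine kinase, and 96067 for MB, myoglobin. Of the animals, CR animal 8 was lowest in 12 of the 28 tested members and control animal 4 was highest in 8. The median deviation of the 28 from their means was -0.84 in CR animal 8 and 0.74 in control animal 4. Over all tested probe sets it was 0.024 and 0.0084 in the same animals. The common scaling keeps that median small in every animal (-0.037 to 0.057), so it cannot show whether these 2 arrays are ordinary elsewhere. Values without one or both of these animals are given beside many, though not all, of the results they moved.

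No member passed the test between the diets. By limma's test with Benjamini-Hochberg adjustment over 26383 probe sets, 0 of the 28 members were called higher and 0 were called lower, and their lowest adjusted p was 0.999. Across all tested probe sets, 0 were called either (0.0%). At an unadjusted p under 0.05, 0 members were higher in CR against 1.25% of all tested probe sets, and 1 was lower against 1.18%, with 2.43% of all probe sets past that level in either direction. An exact rank-sum test called 0 as well, with 0 members and 655 (2.48%) of all tested probe sets at an unadjusted p under 0.05. The groups overlapped for all 28 members, while they did not for 0.072% of all tested probe sets. For a member, the 95% interval reached a median of 0.67 on the log2 scale to either side.

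Signs were counted for each class, with no test between classes. Differences were below 0 for 20 of the 28 members and above 0 for 8, against 51.9% below 0 and 48.1% above 0 among all tested probe sets, and their median was -0.26 against -0.012. All 11 tested probe sets for class II chains, DM and CD74 had a difference below 0, with a median of -0.48 and a range of -1.14 to -0.19. The 13 for class I heavy chains split into 8 above and 5 below 0, with a median of 0.14 and a range of -2.08 to 1.02. Both probe sets of B2M and both tested ones of TAP lay below 0. The median of all 28 was -0.16 without CR animal 8 and -0.081 without CR animal 8 and control animal 4. The class II median was -0.32 and -0.30 in those settings. Both animals were picked for their low or high values in these same members, so a smaller difference without them was partly built in. Probe sets of 1 gene share their target, so these counts are not counts of independent genes.

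**Figure D1:**
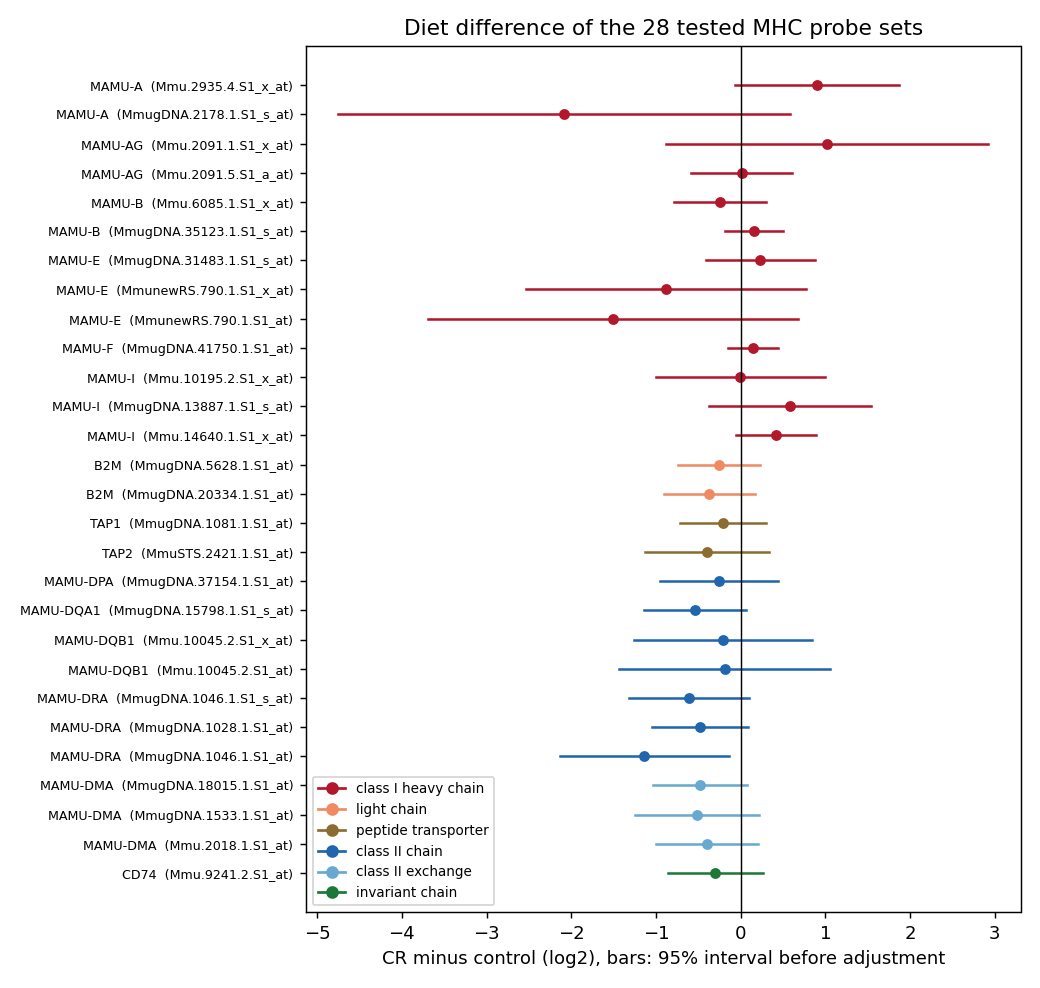
Difference between the diets, CR minus control on the log2 scale, for the 28 tested probe sets of MHC genes, grouped by role, with bars for the 95% interval before adjustment. Of the intervals only that of 1 MAMU-DRA probe set, at -1.14, leaves out 0, while MAMU-A spans the widest range, with 1 probe set at -2.08 and the other at 0.90.

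MAMU-A encodes a classical class I heavy chain. Its probe set MmugDNA.2178.1.S1_s_at had signals of 249, 9056, 98.6, 2623, 340.4, 653, 198 and 110.4 in CR animals 1 to 8, and of 76.6, 7821, 20004, 5427 and 535 in control animals 1 to 5. CR animals 2 and 4 and control animals 2, 3 and 4 lay at or above 2623, and the other 8 animals lay at or below 653, so both levels occurred on both diets. The mean log2 signal was 8.91 ± 2.29 in CR and 10.99 ± 3.27 in controls (SD, n = 8 and 5), a difference of -2.08 ± 1.26 (SE, adjusted p = 0.999). It was the lowest difference among all tested probe sets, and the residual SD within diet, 2.69 on the log2 scale, was the highest of all 26383. Without control animal 3 the difference was -1.26, and without control animal 1 it was -3.26. Without CR animal 8 and control animal 4 it was -1.42.

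The other MAMU-A probe set followed another pattern. It had signals of 992 to 4586 in CR, with a median of 2207, and of 1323, 2089, 431, 3639 and 511 in control animals 1 to 5. Control animals 3 and 5 were the lowest of the 13, and control animal 3 was the highest of the 13 in the first probe set. The difference was 0.90 ± 0.46 (SE, unadjusted p = 0.0653, adjusted p = 0.999), of the opposite sign, and 1.31 without control animal 4.

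MAMU-AG is a nonclassical class I gene that in the rhesus placenta plays the part of human HLA-G. The brighter of its tested probe sets had signals of 5717 to 21922 in CR with a median of 8415, and of 3563, 22363, 9070.1, 19676 and 127 in control animals 1 to 5. Control animal 5 stood far below all others, and the other 12 animals lay between 3563 and 22363, with overlapping diets. The difference was 1.02 ± 0.90 (SE) with all animals, -0.27 without control animal 5 and 1.55 without control animal 4. The dimmer probe set had signals of 108 to 329 in CR and 131 to 262 in controls, with 197 in control animal 5, and a difference of 0.010 ± 0.28 (SE).

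**Figure D2:**
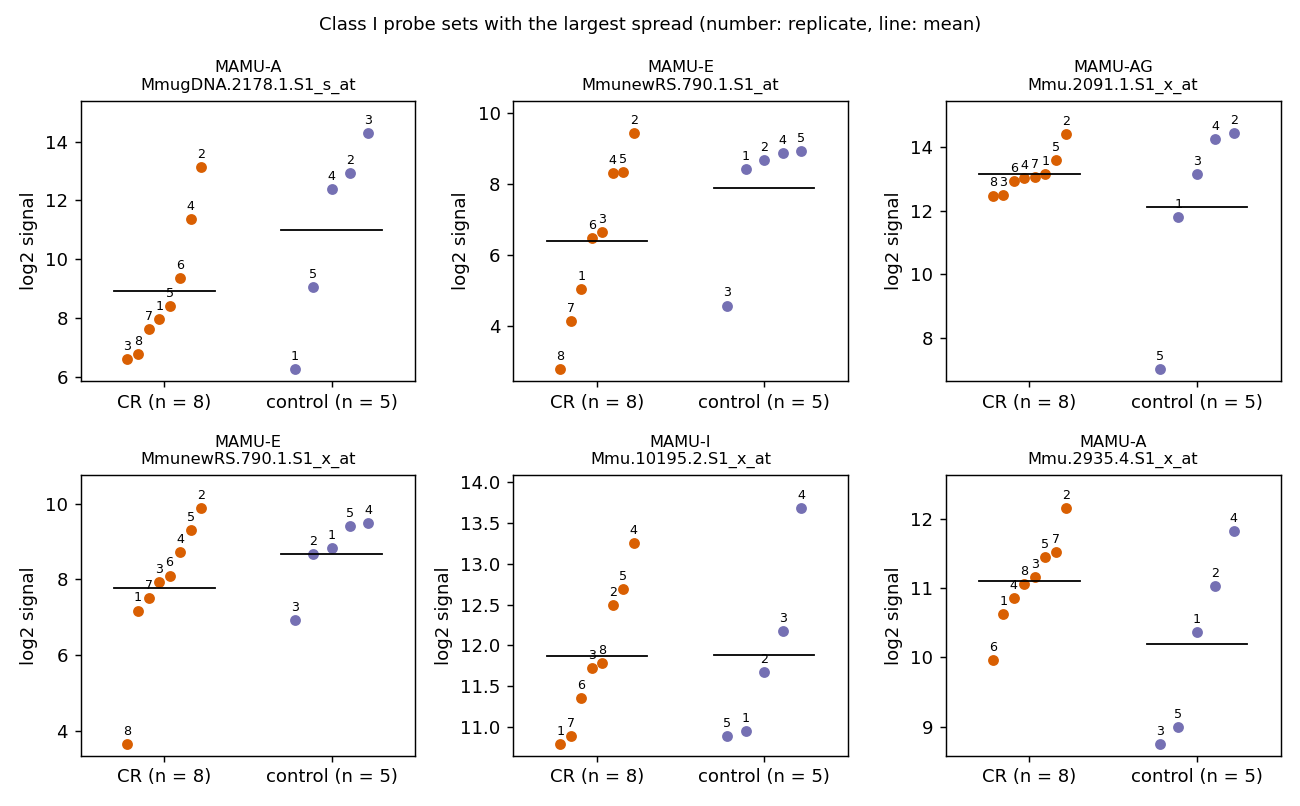
Log2 signal of the class I probe sets with the largest spread in each of 8 CR and 5 control animals, 1 panel per probe set with its own vertical axis, numbers giving the replicate and lines the group means. In MAMU-A MmugDNA.2178.1.S1_s_at, CR animals 2 and 4 and control animals 2, 3 and 4 lie apart from the rest, and in the brighter MAMU-AG probe set control animal 5 lies alone at the bottom.

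MAMU-E encodes a nonclassical heavy chain that shows leader peptides of other class I chains to natural killer cell receptors. Its probe sets MmunewRS.790.1.S1_at and MmunewRS.790.1.S1_x_at read the same target. The first had signals of 6.8 to 696 in CR with a median of 94.5, and of 342, 415, 23.8, 471 and 495 in control animals 1 to 5. CR animal 8 was the lowest and CR animal 2 the highest, and control animal 3 stood below the other controls. The second spanned 12.6 in CR animal 8 to 956 in CR animal 2, with a median of 259 in CR. It had 457, 405, 122, 725 and 678 in control animals 1 to 5. Their differences were -1.51 ± 1.03 and -0.88 ± 0.78 (SE), and without CR animal 8 they were -0.99 and -0.29. The brightest MAMU-E probe set, MmugDNA.31483.1.S1_s_at, did not share that order: it had 405 to 841 in CR with a median of 487, and 226, 282, 617, 831 and 620.4 in control animals 1 to 5, a difference of 0.23 ± 0.30 (SE).

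MAMU-B, the other classical class I family, gave a bright and a dim signal. The brighter probe set had signals of 8479.6 to 19682 in CR with a median of 12842, and of 10207, 11319, 12852, 29824 and 17689 in control animals 1 to 5. Control animal 4 was the highest of the 13, and the difference of -0.24 ± 0.26 (SE) was 0.0014 without it. The dimmer one, MmugDNA.35123.1.S1_s_at, was among the steadiest members, with 429 to 712 in CR, 405 to 552 in controls and a difference of 0.16 ± 0.16 (SE).

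MAMU-I is a class I gene related to MAMU-B, known for few sequence variants. Its brightest probe set had signals of 1777 to 9754 in CR with a median of 3451, and of 1978, 3277, 4629.5, 13218 and 1905 in control animals 1 to 5. Its groups lay over each other, with a difference of -0.0045 ± 0.47 (SE) that was 0.45 without control animal 4. The dimmest MAMU-I probe set had 189.9 to 286 in CR with a median of 259.8, and 170.1, 264, 145, 222 and 137 in control animals 1 to 5, a difference of 0.41 ± 0.22 (SE, unadjusted p = 0.0827, adjusted p = 0.999). Control animals 1, 3 and 5 lay below every CR animal there. The remaining MAMU-I probe set had a difference of 0.58 ± 0.45 (SE). MAMU-F, whose human counterpart HLA-F is a nonclassical class I gene, was the steadiest member: MmugDNA.41750.1.S1_at had 1135 to 1614 in CR with a median of 1339, and 1133, 1413, 1288, 1009 and 1334 in control animals 1 to 5. All 13 animals lay within a range of 1.60-fold, with a residual SD of 0.18 and a difference of 0.14 ± 0.14 (SE).

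B2M, the light chain shared by all class I molecules, has 2 probe sets. MmugDNA.5628.1.S1_at had signals of 14728 to 41818 in CR with a median of 25808, and of 26132, 29667, 30986, 42657 and 27939 in control animals 1 to 5. The 5 controls lay at or above 26132, and the CR animals reached from below that to 41818 in CR animal 2, so the groups overlapped. The difference was -0.26 ± 0.23 (SE), and it was -0.14 without CR animal 8 and -0.14 without control animal 4. The second B2M probe set had a difference of -0.37 ± 0.26 (SE), and without both animals the differences were -0.025 and -0.096.

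TAP1 and TAP2 form the peptide transporter as a pair. TAP1 had signals of 238 to 693 in CR with a median of 516, and of 437, 781, 460.2, 543 and 746 in control animals 1 to 5. CR animal 8 was far below the other 7 CR animals, and the difference of -0.21 ± 0.24 (SE) was -0.057 without it. The tested TAP2 probe set had 51.1 to 272 in CR with a median of 153, and 187, 183, 234, 154 and 182 in control animals 1 to 5, a difference of -0.40 ± 0.35 (SE). Controls lay close together in TAP2, within the wider range of the CR animals.

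MAMU-DRA encodes the nearly invariant alpha chain of DR and has 3 probe sets. MmugDNA.1046.1.S1_s_at had signals of 849.8 to 3864 in CR with a median of 2001, and of 2352, 3542, 1826, 4483 and 4489 in control animals 1 to 5. Control animals 4 and 5 were above every CR animal, and CR animal 8 was below all others. Its difference was -0.61 ± 0.33 (SE, unadjusted p = 0.0871, adjusted p = 0.999), and MmugDNA.1028.1.S1_at had -0.49 ± 0.27 (SE). Without CR animal 8 and control animal 4 these were -0.30 and -0.28.

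The member with the lowest p was a dimmer probe set of the same gene, MAMU-DRA MmugDNA.1046.1.S1_at. It had signals of 51.5 to 772 in CR with a median of 300.1, and of 276, 628, 555, 949 and 696 in control animals 1 to 5. The mean log2 signal was 8.04 ± 1.10 in CR and 9.17 ± 0.66 in controls (SD, n = 8 and 5), a difference of -1.14 ± 0.47 (SE, unadjusted p = 0.0275, adjusted p = 0.999). CR animal 2 was above 4 of the 5 controls, and the difference was -0.80 without CR animal 8 and -0.62 without control animal 4 as well.

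MAMU-DPA, the alpha chain of DP, had signals of 467 to 2024 in CR with a median of 1161, and of 992, 1175, 895, 1776 and 2056 in control animals 1 to 5. Of the CR animals 3 lay below every control, and 1 control lay above every CR animal. The difference of -0.26 ± 0.33 (SE) was -0.085 without CR animal 8 and 0.026 without control animal 4 as well. MAMU-DQA1, the alpha chain of DQ, had 347 to 975 in CR with a median of 659, and 878, 559, 672, 1216 and 1278 in control animals 1 to 5, a difference of -0.54 ± 0.28 (SE, unadjusted p = 0.0745). Control animals 4 and 5 were again above every CR animal, and without CR animal 8 and control animal 4 the difference was -0.31.

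MAMU-DQB1, the polymorphic beta chain of DQ, showed a wide spread among controls. Its brighter probe set had signals of 139 to 515 in CR with a median of 300.2, and of 681, 567, 92.8, 149 and 735 in control animals 1 to 5. Controls 1, 2 and 5 lay above every CR animal and control 3 lay below every one. The dimmer probe set had 83.2 to 349 in CR with a median of 246, and 364, 402, 95.1, 45.2 and 695 in control animals 1 to 5, with controls 1, 2 and 5 again highest and control 4 lowest of all. Differences were -0.21 ± 0.50 and -0.19 ± 0.59 (SE) in the 2 probe sets, which share a target, and they were 0.077 and 0.24 without control animal 5, -0.063 and -0.077 without CR animal 8, and -0.50 and -0.75 without control animal 4.

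CD74 had signals of 978 to 2741 in CR with a median of 1569, and of 1902, 2118, 1087, 2683 and 2306 in control animals 1 to 5. Of the controls, 4 lay above the CR median and control animal 3 lay near the lowest CR animals. The difference of -0.30 ± 0.27 (SE) was -0.18 without control animal 4 and -0.11 without CR animal 8 as well. MAMU-DMA, the alpha chain of DM, had in its brightest probe set 359.5 to 981 in CR with a median of 619, and 445, 760.1, 887, 1365 and 809 in control animals 1 to 5. Its 3 probe sets had differences of -0.48 ± 0.26, -0.52 ± 0.35 and -0.40 ± 0.28 (SE). These were -0.42, -0.32 and -0.20 without CR animal 8, and -0.29, -0.28 and -0.51 without control animal 4. Without both they were -0.22, -0.080 and -0.32.

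Both subunits of DO, MAMU-DOA and MAMU-DOB, were below the brightness limit in all 3 probe sets each, as were 2 of 3 probe sets of MAMU-F, 2 of 3 of TAP2 and the 1 shared by MAMU-AG and MAMU-A. The lowest mean signal tested was 107. Just inside were MAMU-E MmunewRS.790.1.S1_at with 126 and TAP2 with 157, and just outside were MAMU-DOB MmuSTS.84.1.S1_at with 107 and MAMU-DOA MmugDNA.36614.1.S1_s_at with 101. With all probe sets kept, MAMU-DOA MmuSTS.2515.1.S1_at had 4.38 to 87.6 in CR with a median of 21.3, and 148, 79.6, 83.0, 42.8 and 126 in control animals 1 to 5. Its difference was -2.29 ± 0.76 (SE, unadjusted p = 0.00732, adjusted p = 0.999), while the other MAMU-DOA probe sets had 0.23 ± 0.59 and 0.64 ± 0.61 (SE).

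**Figure D3:**
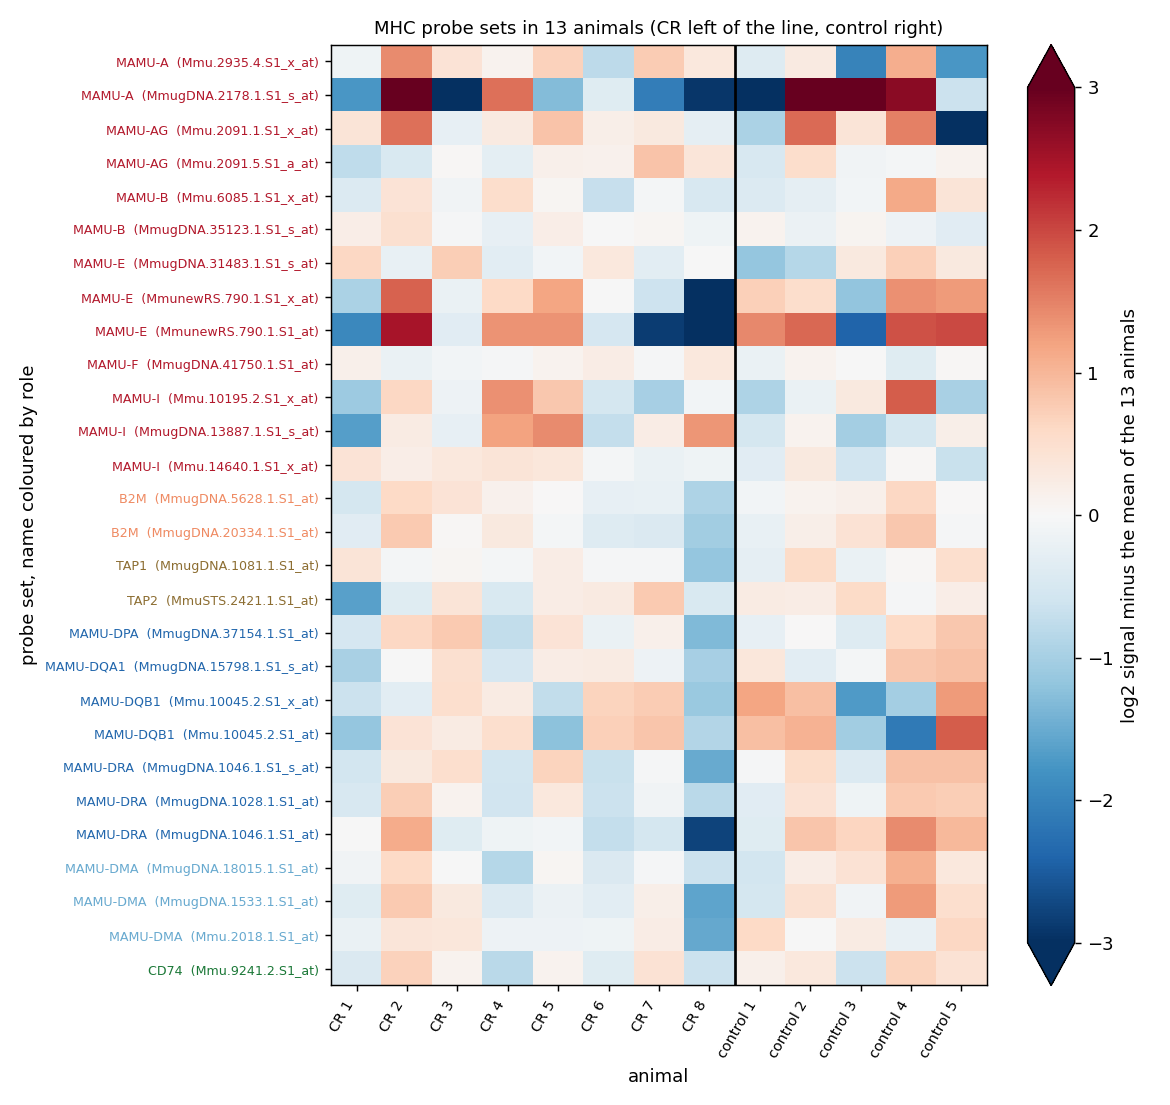
Log2 signal of each tested probe set of MHC genes minus its mean over the 13 animals, CR animals left and control animals right, with the colour scale ending at 3 in either direction. The column of CR animal 8 is low in most class II rows, those of control animals 4 and 5 are high there, and the MAMU-A, MAMU-AG and MAMU-E rows hold the strongest colours.

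The spread between animals was described for each member. The residual SD within diet had a median of 0.60 on the log2 scale over the 28 members against 0.45 over all tested probe sets. Relative to the SD that limma's trend gives at the same mean signal, the median was 1.57 for members and 1.03 for all. That ratio was at least 2 in 11 of the 28 members against 5.86% of all tested probe sets, and above 1 in 23 against 53.4%. A range of 16-fold or more over the animals was found in 5 members against 3.31% of all, and a residual SD above 1 in 6 against 6.32%. The trend SD is fitted over all probe sets, and these values are a description with no test.

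Of the 5 members with a range of 16-fold or more, 4 were class I heavy chains and 1 was a class II chain, while an SD of at least 2 times the trend was found in 7 of 13 class I heavy chains and 4 of 7 class II chains. MAMU-A MmugDNA.2178.1.S1_s_at spanned 261-fold, the brighter MAMU-AG probe set 176-fold, and the MAMU-E pair 102-fold and 75.8-fold, and MAMU-DRA MmugDNA.1046.1.S1_at spanned 18.4-fold. Other probe sets of the same genes spanned less: 10.6-fold in MAMU-A, 3.05-fold in MAMU-AG and 3.72-fold in MAMU-E. The partner genes spanned 2.90-fold and 3.59-fold in B2M, 2.80-fold in CD74, 3.29-fold in TAP1 and 5.31-fold in TAP2.

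**Figure D4:**
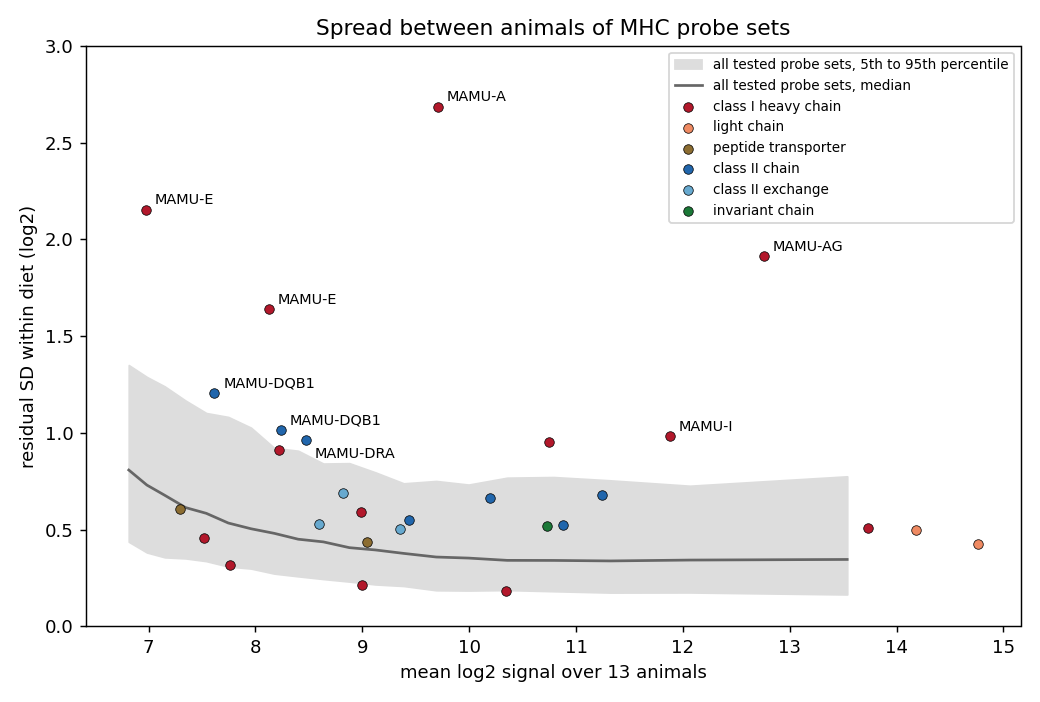
Residual SD within diet on the log2 scale against the mean log2 signal over 13 animals for the 28 tested members, with the median (line) and the 5th to 95th percentile (grey) of all tested probe sets at each brightness. MAMU-A MmugDNA.2178.1.S1_s_at lies at the top at 2.69, and MAMU-F at 0.18 and 1 MAMU-B probe set at 0.21 lie at the bottom.

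Probe sets of 1 gene were set against each other across the 13 animals, in 16 pairs chosen after their values were seen, with permutation tests of 100000 resamples and adjustment over the 16. Of these, 7 passed an adjusted p under 0.05: B2M (r = 0.927, rho = 0.940, adjusted permutation p = 8e-05 and 0.00016), all 3 pairs of MAMU-DRA (r = 0.908, 0.771 and 0.800), 1 of MAMU-DMA (r = 0.838), MAMU-DQB1 (r = 0.894) and the MAMU-E pair of 1 target (r = 0.911). By their names, the MAMU-DQB1 pair and the MAMU-DRA pair with r = 0.771 also share a target, so likeness there is partly built in. Without the 2 animals farthest from the median, r was 0.840 for B2M, and the MAMU-DRA pair with r = 0.771 had 0.512 (adjusted permutation p = 0.218). Without CR animal 8 alone that pair had r = 0.575 (adjusted permutation p = 0.120), and r still passed without control animal 5 alone (adjusted permutation p = 0.0112). Class I pairs did not pass otherwise: r was -0.18 for MAMU-B, -0.027 for MAMU-AG, -0.12 and -0.23 for MAMU-E MmugDNA.31483.1.S1_s_at with the other 2, and 0.19 to 0.37 for MAMU-I. The remaining MAMU-DMA pairs, each with the dimmest probe set, did not pass either (r = 0.313 and 0.581, adjusted permutation p = 0.437 and 0.105). With 1 animal left out, r ranged from 0.026 to 0.481 and from 0.047 to 0.775. The second of these pairs passed without control animal 1 or control animal 4 (adjusted permutation p = 0.0383 and 0.0194). The 2 MAMU-A probe sets got no r, because the animals fall into separate levels in one of them.

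Across genes, 8 relations were computed with each gene's brightest probe set and adjusted together. MAMU-DRA and MAMU-DPA moved together over the 13 animals (r = 0.916, rho = 0.846, adjusted permutation p = 0.00024 and 0.0036), and so did CD74 and MAMU-DRA (r = 0.810, rho = 0.742, adjusted permutation p = 0.0035 and 0.0203). With the diet means removed, r was 0.937 and 0.792, within the 8 CR animals it was 0.942 and 0.744, and without the 2 farthest animals it was 0.835 and 0.834. The 5 controls are too few for an r of their own. Animals share 1 array across all genes, so the scaling of an array is common to both axes.

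The remaining 6 relations did not pass. B2M with TAP1 had r = 0.416 and rho = 0.088 (adjusted permutation p = 0.269 and 0.849), and r was -0.22 without CR animal 8 and control animal 4. TAP1 with TAP2 had r = 0.0030 and rho = -0.060 (adjusted permutation p = 0.991 and 0.849), and r was -0.42 without the 2 farthest animals. B2M with CD74 had r = 0.559 and rho = 0.346 (adjusted permutation p = 0.126 and 0.499), and B2M with MAMU-AG had r = 0.208 and rho = 0.451 (adjusted permutation p = 0.560 and 0.330), with r = 0.517 without control animal 5. CD74 with CIITA, the master activator of class II genes, had r = 0.208 and rho = 0.286, and CD74 with the mean of the macrophage and myeloid markers had r = 0.408 and rho = 0.258 (adjusted permutation p = 0.560 and 0.269 for r, and 0.529 for each rho). Without the 2 farthest animals r was 0.260 and 0.646.

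**Figure D5:**
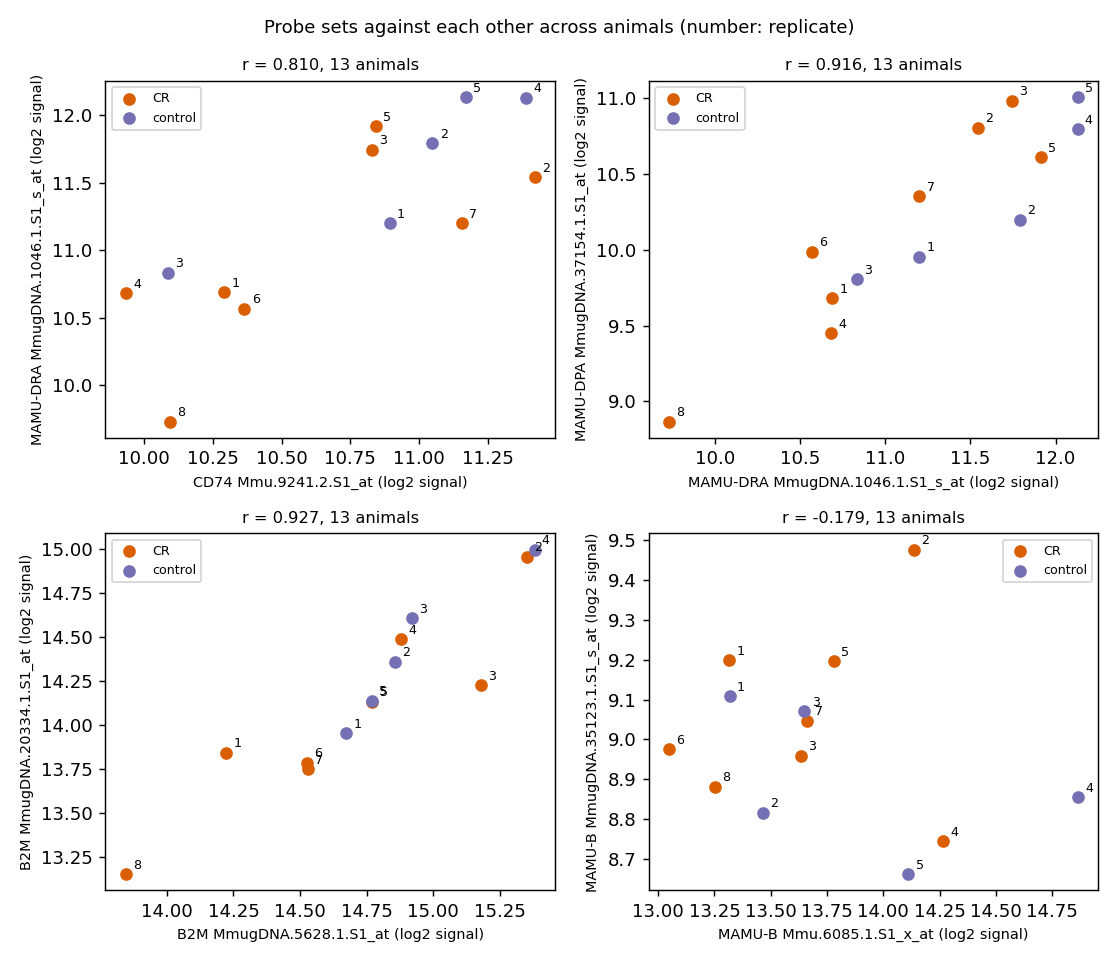
Log2 signals of pairs of probe sets across 8 CR and 5 control animals, numbers giving the replicate and Pearson's r above each panel. MAMU-DRA rises with CD74 (r = 0.810) and MAMU-DPA with MAMU-DRA (r = 0.916). The B2M probe sets have r = 0.927 with each other, and the tested MAMU-B probe sets have r = -0.18.

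Genes that act beside the members were read from lists of known pathway genes, each by its brightest probe set, and none was called. Of the class I processing and loading genes, 8 of 12 were tested and all 8 differences lay below 0 (median -0.22), among them PSMB8, an immunoproteasome subunit (-0.58 ± 0.37), and CANX, the chaperone calnexin (-0.24 ± 0.18, SE). Class II processing genes split 3 below and 3 above 0 among 6 tested (median -0.019), with LGMN, an asparaginyl endopeptidase, at 0.38 ± 0.18 (SE). Regulators of MHC genes had 5 of 9 below 0 (median -0.042): CIITA was at 0.0077 ± 0.53, and NLRC5, the activator of class I genes, was at -0.46 ± 0.21 (SE, unadjusted p = 0.0406). Interferon response genes had 13 of 16 below 0 (median -0.20), with GBP1, a guanylate-binding protein, at -0.87 ± 0.37 (SE, unadjusted p = 0.0309). The median over all tested probe sets was -0.012.

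Markers of the cells that could carry these transcripts were measured beside them. In whole muscle, fewer cells of a type and less RNA per cell cannot be told apart. Of the endothelial markers, 9 of 11 were tested and all 9 differences lay below 0 (median -0.33), and the mean log2 of the list ranged from 8.19 to 9.42 in CR and from 8.76 to 9.68 in controls, with the highest value in control animal 4. That list ran below 0 together with the class II members, and its part in their differences was not tested. Macrophage and myeloid markers split 7 below and 7 above 0 among 14 of 16 tested (median -0.034), with a mean log2 of 8.53 to 10.22 in CR and 8.89 to 9.65 in controls. The probe set annotated ITGAM in that list had a mean signal of 75523; without it, 7 of 13 lay below 0 (median -0.071) and r with CD74 was 0.414. Of the dendritic cell markers 2 of 9 were bright enough, CD1C (-0.051 ± 0.40) and CCR7 (0.64 ± 0.42, SE). Of the B and plasma cell markers 1 of 8 was, CD79B (0.41 ± 0.25, SE), while MS4A1, CD79A, CLEC9A and XCR1 fell below the limit. With dim probe sets included, the mean log2 of the dendritic list was 5.49 in CR and 5.35 in controls. That of the B and plasma cell list was 6.30 in CR and 5.89 in controls. T and NK cell markers gave 3 of 12, all above 0 (median 0.17): CD4, GZMA and KLRD1, with mean signals of 131, 2888 and 5624. Whether the brighter ones read these genes alone was not tested. CD8A, below the limit, had a mean log2 signal of 5.99 in CR and 7.16 in controls. The mean log2 of the 6 listed T and NK markers was 8.36 in CR and 8.57 in controls.

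The probe sets most like CD74 across the 13 animals, among 15742 tested probe sets with 1 symbol, were those of TMEM176B (r = 0.897), MAN2A1 (r = 0.895), TINAGL1 (r = 0.889), SLK (r = 0.884) and HSPG2 (r = 0.883). Those most like B2M were FLNC (r = 0.942), PTPRC (r = 0.919), LCP1 (r = 0.917), SRGN (r = 0.910) and SRPX (r = 0.908). PTPRC encodes CD45, a surface phosphatase of white blood cells, and LCP1 encodes plastin 2 of the same cells, whereas FLNC is the muscle filamin. The 2 sets of most alike genes were chosen as the highest of many, over 13 animals that share an array per animal, so these r carry no test.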

How the data were processed

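Trizol was used to extract total RNA, and biotin-labelled cRNA was put on one-colour Affymetrix arrays, as the labels' protocols say. The authors deposited intensity values on a linear scale, 1 signal per probe set and array. Per the submitters' processing notes, these were summarised with MAS5 (version not given in the sources used here). For each array the 2% trimmed mean was 500, so an animal in which most transcripts shift would not stand out. Nothing was normalised further.

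After 99 control probe sets of 52865 were taken out, signals were set to a floor of 1 (137 values) and log2 transformed. The brighter 50% by mean log2 signal over all arrays, 26383 probe sets, were tested. Gene symbols come from the platform annotation: 24956 probe sets have 1 symbol, 361 several and 27449 none listed. Of 17 symbols of members, 15 matched the RefSeq gene table. There, 13 lie on chromosome 4, TAP1 and TAP2 among them, while CD74 lies on chromosome 6 and B2M on chromosome 7.

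Diets were compared in R 4.3.3 with limma 3.58.1 (lmFit, then eBayes with a trend), two-sided, and p-values were adjusted by Benjamini-Hochberg over all tested probe sets with 0.05 as the threshold. Relations were tested in Python 3.11.15 with numpy 2.4.6, and figures were drawn with matplotlib 3.10.9. The test was tried on simulated data of 26383 probe sets. It found 3 of the 67 with a 1.5-fold change, 25 of the 67 with a 2-fold change and 55 of the 66 with a 4-fold change, and it made 4 calls that were false. Noise was normal and independent between probe sets, and the changed ones were drawn from all tested probe sets. Members had a larger median residual SD (0.60 against 0.45), so these shares cannot be read as shares for members.

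Every member is accounted for. For the brightest tested probe set of each gene, control values are given per animal, and CR values per animal or as a range with its median. The same holds for the 5 members with the lowest p and for the 5 with the largest residual SD. The members, the lists and the tests were chosen with earlier results of these data known. The relation with MAMU-DRB1 was not computed, because no probe set carries that symbol as its only one, and MAMU-DPA1 was taken as MAMU-DPA, its RefSeq synonym. Replicate numbers did not pair the animals: deviations of animals of the same number correlated at -0.20 to 0.020. Array dates and batches are not known here.

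Alternatives were an offset of 16, quantile normalization or median centring of the arrays, all probe sets or the brightest 25%, eBayes with no trend, array weights, the 3-prime over 5-prime ratios of GAPDH and actin as covariates, an exact rank-sum test, the replicate block and each animal left out.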

Additional observations from a re-analysis of the deposited data

Results flagged for a closer look

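In 5 of 56 groups of animals searched (28 members, 2 diets), 1 animal lay far from the others of its diet; chance gives about 2.8. Of the 5, 4 concern CR animal 8. TAP1 had a log2 signal of 7.89 there against 8.98 in the next lowest CR animal. The dimmest of 3 MAMU-DMA probe sets had 7.07 against 8.40. MAMU-DRA MmugDNA.1046.1.S1_at had 5.69 against 7.77, and MAMU-E MmunewRS.790.1.S1_x_at had 3.66 against 7.18. In the controls, MAMU-E MmunewRS.790.1.S1_at was lowest in control animal 3, with 4.57 against 8.42 in the next. The median deviation of CR animal 8 over all tested probe sets was 0.024 on the log2 scale, a median that the common scaling keeps small in every animal.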

How the results depend on the processing

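No member was called in any of the 23 alternatives of the fit or in the exact rank-sum test, and the lowest adjusted p of a member was 0.903. Of 634 member differences under these alternatives, 603 kept their sign and 31 changed it, and 20 of 28 members never changed sign. The median of the members ranged from -0.36 to -0.16 with 1 animal left out and was -0.081 without CR animal 8 and control animal 4, a setting chosen after seeing the data. The median residual SD ranged from 0.55 to 0.62 with 1 animal left out, and with no filter on dim probe sets it was 0.77 against 0.81 over all. With the replicate block the median was -0.14, and 8 differences lay above and 20 below 0. The class II median ranged from -0.59 to -0.32 and its count below 0 from 9 to 11 of 11 with 1 animal left out, and among the brightest 25% 7 of 7 lay below 0, fewer because fewer were tested.

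Differences changed sign as follows, and where no animal is named the cause was not tested. The brighter MAMU-B probe set ranged from -0.39 to 0.0014 with 1 animal left out, and was 0.056 without control animal 4 and CR animal 8. The brighter MAMU-AG probe set ranged from -0.27 to 1.60. The brightest MAMU-I probe set ranged from -0.25 to 0.45, and was 0.29 with array weights, 0.46 with RNA ratios as covariates, 0.31 with the replicate block and 0.46 without both animals. MAMU-DPA was 0.026 without both. MAMU-E MmugDNA.31483.1.S1_s_at ranged from -0.023 to 0.45, and the MAMU-DQB1 probe sets from -0.67 to 0.077 and from -0.75 to 0.24. The dimmer MAMU-AG probe set ranged from -0.11 to 0.14, and was -0.021 with median centring, -0.26 with the replicate block and -0.054 without both animals.

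The relations of CD74 with MAMU-DRA and of MAMU-DRA with MAMU-DPA passed for Pearson's r in every setting, with r from 0.764 to 0.841 and from 0.835 to 0.941, while the adjusted p of rho reached 0.103 and 0.0894. B2M with TAP1 ranged from -0.22 to 0.585 with 1 animal left out, and was -0.22 without the 2 farthest animals, which are CR animal 8 and control animal 4. B2M with CD74 ranged from 0.451 to 0.677 and passed without CR animal 4. TAP1 with TAP2 ranged from -0.30 to 0.377, and was -0.055 with median centring, -0.085 with diet means removed, -0.42 without the 2 farthest and -0.30 without control animal 4 and CR animal 8. With 1 animal left out, B2M with MAMU-AG ranged from 0.113 to 0.517, CD74 with CIITA from 0.130 to 0.418 and CD74 with the myeloid markers from 0.230 to 0.528, none of which passed. Between probe sets of 1 gene, MAMU-AG was 0.024 with quantile normalization, 0.059 with median centring and -0.14 to 0.10 with 1 animal left out, MAMU-B was 0.14 with median centring and 0.17 without the 2 farthest, and the MAMU-E pairs were 0.016 and 0.016 without the 2 farthest.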
